A study of Mus musculus with 71 samples.

Results

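The loops of 10 genes of fibroblast growth factor (FGF) signaling were read from a merged list of chromatin loops in mouse synovial sarcoma (SyS). The genes were the 4 FGF receptors Fgfr1 to Fgfr4, the ligands Fgf9 and Fgf18, and the feedback inhibitors Spry1, Spry2, Spry4 and Dusp6. A gene was given every loop with an anchor within 2 kb of one of its transcription start sites (TSSs) in GENCODE. This gave 39 of the 24244 loops in the list, which belonged to 8 of the 10 genes, out of 55304 genes with a TSS.

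FGF ligands bind receptor tyrosine kinases at the cell surface and, through docking proteins and Ras, activate the kinases of the MAPK cascade. The cascade induces its own brakes, among them the Sprouty proteins, which limit signaling upstream of the Raf kinases, and Dusp6, a phosphatase that removes the activating phosphates from ERK. FGF receptor signaling is known to be active in synovial sarcoma, a soft tissue sarcoma driven by the SS18::SSX fusion.

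The loops came from H3K27ac HiChIP of 2 hSS2 tumors, which are mouse SyS tumors expressing human SS18::SSX2. Expression was started by injecting TATCre protein, a cell-permeable recombinase that is not tied to a cell type, into the limb of 8-day-old mice. HiChIP ligates DNA ends that lie close together in the nucleus and then captures fragments with an antibody, here against H3K27ac, a mark of active promoters and enhancers. Both tumors carried the same genotype, there was no group without the fusion in the loop data, and the ChIP-seq samples of the study were not analysed here.

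Each loop had a count of paired-end tags, which are read pairs joining its anchors. Summing the tags over all loops of a promoter gave its loop score. The list held 41574 tags, 78.0% of its loops had a single tag, and the 13200 promoters with a loop had a median score of 4. The list was the concatenation of 2 sorted parts with 28657 and 12917 tags, which no label ties to a tumor. There are therefore no values per tumor, no test was made, and intervals cover counting error only. The tumors were used whole, so fewer cells with a contact and fewer contacts per cell cannot be told apart.

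The receptors Fgfr1 and Fgfr2 and the feedback genes Dusp6, Spry2 and Spry4 carried most of the loops, while both ligands, the receptor Fgfr4 and the feedback gene Spry1 had at most 1 loop each. Of the 8 Fgfr2 loops, however, 5 lay at a start site shared with Ctbp2. The main Fgfr2 promoter had 3 loops, as many as Fgfr3. In all, 8 of 10 genes had a loop (80%), against 23.9% of all genes and 45.8% of protein-coding genes. A loop of 2 or more tags was listed for 5 of the 10, against 21.2% of protein-coding genes, and one of 4 or more for 0 of 10, against 8.5%. The 10 genes were chosen with earlier results of these data known and are not replicates, so these differences in share were not tested. The 39 loops held 50 tags, 0.120% of all tags, and the sum was 42 without the Fgfr2 start at Ctbp2. Of the 39 loops, 30 had 1 tag, 7 had 2 and 2 had 3.

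The loop score was 12 for Fgfr2, 11 for Dusp6, 9 for Fgfr1, 8 for Spry2, 5 for Spry4, 3 for Fgfr3, 1 each for Fgf18 and Spry1, and 0 for Fgfr4 and Fgf9. Neighbors in this order were not separated at this depth. The exact Poisson 95% interval was 5.49 to 19.7 tags for Dusp6, 4.12 to 17.1 for Fgfr1 and 1.62 to 11.7 for Spry4, and these overlap. For a listing of 0 the same interval reached 3.69 tags, and contacts not called as loops are not covered by it. The intervals of Dusp6 and Fgfr1 began higher than 3.69 tags, and that of Spry2 began lower, at 3.45. Fgfr2 spanned 6.20 to 20.96 tags over both of its start sites. Its main promoter alone, however, had 4 tags with an interval of 1.09 to 10.2. That interval included 3.69 tags, as did those of Spry4 and Fgfr3. Of the looped promoters, 78.8% scored lower than Dusp6, 73.7% lower than Fgfr1, 70.6% lower than Spry2, 55.6% lower than Spry4 and 36.4% lower than Fgfr3. None reached the 90th percentile of 20.

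**Figure D1:**
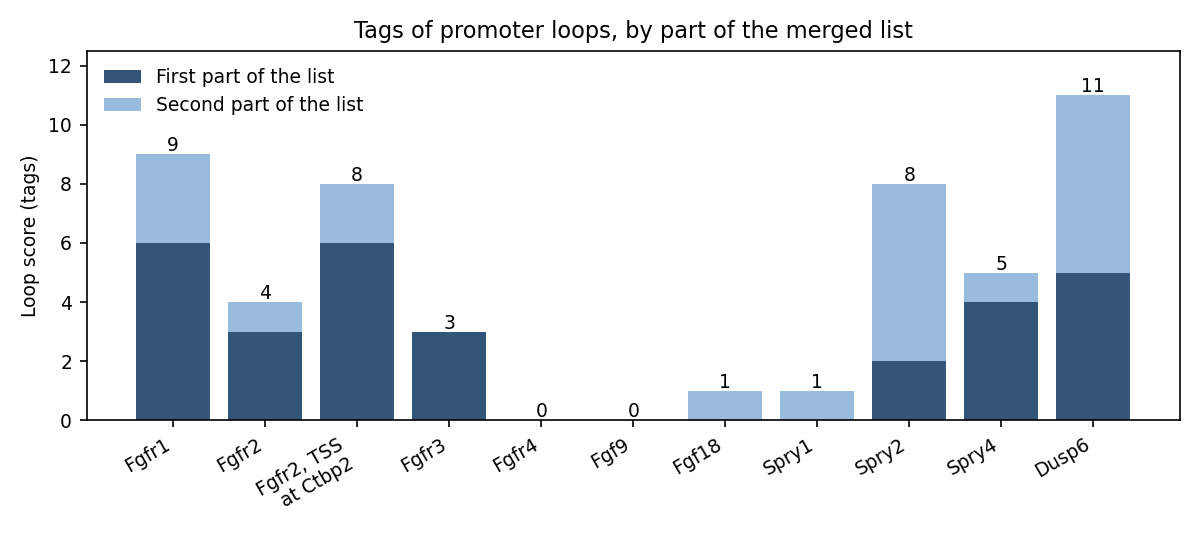
Loop score in tags (vertical axis) of each gene, stacked by the first (dark) and second (light) part of the merged list, with the total above each bar and the 2 promoters of Fgfr2 drawn apart. Fgfr1, both Fgfr2 promoters, Spry2, Spry4 and Dusp6 had tags in both parts, and Fgfr3, Fgf18 and Spry1 in 1 only.

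Fgfr1, a receptor typical of mesenchymal cells, lies at chr8:25513654-25575718 (+). Its promoter anchor, chr8:25517964-25520723, had 6 loops and 9 tags, 6 tags in the first part of the list and 3 in the second. The strongest loop joined it to chr8:25273277-25276330, 245 kb upstream, with 3 tags in the first part (FDR 0.000608) and 1 tag in the second (FDR 0.0156). This was the only pair of anchors of the 10 genes listed in both parts. Among loops of the first part within 10% of that span, 34.8% had as many tags. The distal anchor lay in no gene body and 16.7 kb from the nearest TSS, that of Tacc1. It had 8 loops and 10 tags in all, with Fgfr1 as its strongest partner and single tags to the promoters of Pomk, Ddhd2 and Letm2, among others. The center of this anchor is shown because it carries the only repeated contact of the 10 genes. The sequence is from GRCm38.p6, chr8:25274704-25274903 (+), and capitals mark GATC, the site cut by MboI, the enzyme that digested the chromatin, and the AP-1 motif TGACTCA on either strand.
Fgfr1 distal anchor: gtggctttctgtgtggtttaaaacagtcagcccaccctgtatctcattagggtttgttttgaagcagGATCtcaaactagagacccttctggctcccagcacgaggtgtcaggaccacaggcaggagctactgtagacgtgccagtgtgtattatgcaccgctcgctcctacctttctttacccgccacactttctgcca
Within these 200 bases there was 1 GATC site and no AP-1 motif, and the whole anchor of 3054 bp held 6 GATC sites.

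The other 4 loops of Fgfr1 ended within 2 kb of a TSS of another gene. The loop to Tacc1, a centrosomal coiled-coil protein, had 2 tags over 318 kb (FDR 0.00522), a count that 98.5% of first-part loops of like span reached. Its anchor, chr8:25200154-25202207, lay at an internal TSS of Tacc1, which spans chr8:25154552-25256588 and begins 262 kb from the Fgfr1 TSS. Single tags joined Fgfr1 to Plekha2 at 419 kb and Htra4 at 480 kb upstream, and to Pomk, a kinase that phosphorylates O-mannose on dystroglycan, at 475 kb downstream. All but the Pomk loop thus ran upstream. A second anchor inside the Fgfr1 gene, 25.4 kb from the TSS and outside the promoter window, had 1 tag to the same far anchor and 1 to Eif4ebp1, a repressor of translation.

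**Figure D2:**
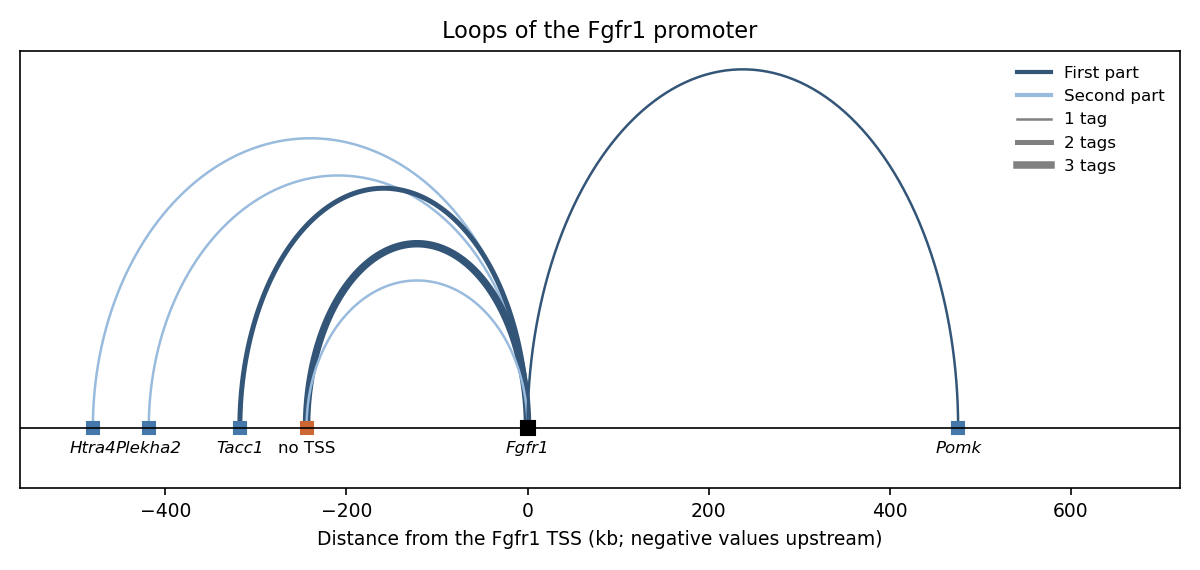
Loops of the Fgfr1 promoter by distance from its TSS in kb (negative values upstream), with arc thickness showing 1, 2 or 3 tags and color the part of the list. Squares mark anchors within 2 kb of a TSS of a protein-coding gene (blue, named) or far from every TSS (orange). Arc height carries no value. The anchor without a TSS, 245 kb upstream, is reached by an arc of 3 tags and an arc of 1.

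Fgfr2 had the largest loop score, but most of it came from a distant start site. GENCODE annotates 1 protein-coding Fgfr2 transcript that starts at chr7:133123350, 2 bp from a TSS of Ctbp2, a transcriptional corepressor, and 2.86 Mb from every other Fgfr2 TSS. Anchors there held 5 loops and 8 of the 12 tags. They are equally loops of Ctbp2, since the anchor is shared. The strongest ran 485 kb to Gm45671 with 3 tags (FDR 3.27e-05), a count that 4.55% of first-part loops of like span reached. Another joined chr7:133493422-133494813 over 371 kb with 2 tags (FDR 0.000557), an anchor 107 kb from the nearest TSS. Single tags went to Oat, Edrf1, and the shared promoter of Bccip and Uros.

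The main Fgfr2 promoter, with its anchor at chr7:130263118-130266852, had 3 loops and 4 tags, 3 in the first part and 1 in the second. This score exceeded that of 47.4% of looped promoters. Both first-part loops ended at internal TSSs of Tacc2, a paralogue of Tacc1. Tacc2 spans chr7:130577438-130764785 and begins 311 kb from the Fgfr2 TSS. One loop ran 381 kb with 2 tags (FDR 0.00312), a count that 30.5% of first-part loops of like span reached. The other loop ran 428 kb with 1 tag (FDR 0.0405). The remaining tag joined Gm23847, 229 kb away. The RefSeq promoter window of Fgfr2 and the center of the far anchor reached from the Ctbp2 site are shown because the score of Fgfr2 is divided between these places. The promoter is chr7:130266759-130267058 (-) and the anchor chr7:133494018-133494217 (+), both GRCm38.p6. Capitals mark the ETS motif CCGGAA in a promoter and GATC and TGACTCA in an anchor, on either strand, and the Fgfr2 promoter has none.
Fgfr2 promoter: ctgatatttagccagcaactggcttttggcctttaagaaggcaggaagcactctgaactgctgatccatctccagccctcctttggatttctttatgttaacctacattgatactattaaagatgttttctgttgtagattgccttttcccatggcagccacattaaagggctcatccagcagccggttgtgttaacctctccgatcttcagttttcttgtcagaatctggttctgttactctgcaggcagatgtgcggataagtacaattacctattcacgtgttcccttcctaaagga
Fgfr2 distal anchor: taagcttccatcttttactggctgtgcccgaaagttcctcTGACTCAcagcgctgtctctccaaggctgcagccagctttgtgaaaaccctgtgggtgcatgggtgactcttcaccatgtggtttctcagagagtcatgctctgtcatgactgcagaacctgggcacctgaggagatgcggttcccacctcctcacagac
The promoter window held no CCGGAA and 4 CpG dinucleotides, fewer than the median of 7 over 32841 RefSeq promoter windows. The anchor held 1 AP-1 motif, in the stretch shown.

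Fgfr3, a receptor known for its role in bone growth, lies at chr5:33721674-33737068 (+) and had 3 loops of 1 tag each, all in the first part. They reached Ctbp1, the paralogue of Ctbp2, at 448 kb, Htt, which encodes huntingtin, at 1040 kb, and Fosl2, an AP-1 subunit, at 1585 kb. The anchor was shared with the promoter of G630022F23Rik, so these tags cannot be given to Fgfr3 alone. Its interval of 0.619 to 8.77 tags included the 3.69 tags that the interval of a count of 0 reaches.

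Fgfr4, the receptor known for the control of bile acid synthesis in liver, had no loop, and by counting error its interval reached 3.69 tags. It lies at chr13:55152640-55168759 (+), and the nearest anchor in the list was 25.6 kb from a TSS. Loops did pass over it, since 42 loops with 52 tags spanned its start. The list held only called loops, so a contact under the calling threshold is not seen here.

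The ligands had 1 tag between them. Fgf18 at chr11:33117430-33147400 (-), a ligand of cartilage and bone growth, had 1 loop of 1 tag in the second part (FDR 0.0303). It reached an anchor 133 kb downstream and 24.3 kb from the nearest TSS. Fgf9 at chr14:58070547-58112720 (+), a ligand of mesenchymal growth, had no loop. The nearest anchor to it was 139 kb away, and 4 loops with 4 tags spanned its start.

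Dusp6, the ERK phosphatase, lies at chr10:99263231-99267489 (+) and had the most loops. Its anchor held 9 loops and 11 tags, 5 in the first part and 6 in the second. The strongest contacts lay on either side of the gene. Upstream, 2 tags joined it to Atp2b1, a plasma membrane calcium pump, over 349 kb (FDR 0.00374), a count that 57.2% of first-part loops of like span reached. Downstream, 2 tags reached the noncoding genes Gm34983 and Gm35035 over 198 kb (FDR 0.0012), a count that 9.96% of second-part loops of like span reached. The other 7 loops had 1 tag each. They reached an anchor without a TSS at 126 kb, the shared promoter of Galnt4 and Poc1b at 156 kb, Gad1-ps at 180 kb, and Kitl, which encodes the ligand of the Kit receptor, at 753 kb. Farther out they reached the neighboring starts of Cep290 and Tmtc3 at 1224 kb, an anchor 2.97 kb from Cep290 at 1230 kb, and the genes 1700017N19Rik and 4930430F08Rik at 1325 kb. The RefSeq promoter window, chr10:99262981-99263280 (+) of GRCm38.p6, is shown because Dusp6 had the largest score at a single promoter.
Dusp6 promoter: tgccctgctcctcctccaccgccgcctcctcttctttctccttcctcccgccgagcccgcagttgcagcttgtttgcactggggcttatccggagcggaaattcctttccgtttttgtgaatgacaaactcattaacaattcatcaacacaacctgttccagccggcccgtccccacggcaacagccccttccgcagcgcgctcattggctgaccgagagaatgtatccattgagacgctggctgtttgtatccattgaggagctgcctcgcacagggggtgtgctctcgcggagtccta
It held no match to CCGGAA on either strand, and 19 CpG dinucleotides.

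Spry2, a Sprouty protein, lies at chr14:105891947-105896819 (-) and had 7 loops and 8 tags, 2 in the first part and 6 in the second. All 7 loops ran downstream. The strongest joined chr14:105731607-105734343 over 163 kb with 2 tags in the second part (FDR 0.00198), a count that 11.9% of loops of like span there reached. That anchor lay 49.8 kb from the nearest TSS. Single tags reached an anchor without a TSS at 203 kb, the noncoding genes 9330188P03Rik, 4930449E01Rik and 5430440P10Rik at 306, 394 and 469 kb, Ndfip2, an adaptor of Nedd4-family ubiquitin ligases, at 637 kb, and Rbm26 at 720 kb. These contacts lie in a region with few genes, where 1 other protein-coding gene has a TSS within 500 kb of Spry2. The promoter window, chr14:105896770-105897069 (-), and the center of the strongest far anchor, chr14:105732876-105733075 (+), are shown as the ends of the Spry2 loop with the most tags. Capitals mark the same motifs as above, and the stretch of the anchor has none.
Spry2 promoter: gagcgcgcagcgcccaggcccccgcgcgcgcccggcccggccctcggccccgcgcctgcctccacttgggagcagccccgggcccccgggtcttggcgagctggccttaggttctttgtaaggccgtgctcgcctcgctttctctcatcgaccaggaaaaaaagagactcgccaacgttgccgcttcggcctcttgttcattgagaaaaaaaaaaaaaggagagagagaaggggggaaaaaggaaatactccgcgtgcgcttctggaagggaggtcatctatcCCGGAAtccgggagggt
Spry2 distal anchor: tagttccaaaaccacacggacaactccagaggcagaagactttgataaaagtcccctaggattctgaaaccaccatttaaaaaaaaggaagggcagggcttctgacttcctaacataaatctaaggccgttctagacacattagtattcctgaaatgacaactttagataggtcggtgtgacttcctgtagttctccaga
The promoter window held 1 CCGGAA near its 3′ end and 28 CpG dinucleotides. The whole anchor of 2737 bp held 4 GATC sites and 1 AP-1 motif, all outside the stretch shown.

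Of the 10 genes, 8 had a window in the RefSeq promoter table, 9 windows in all with 2 for Fgfr3, and Fgfr1 and Spry4 had none. CCGGAA, a motif bound by transcription factors of the ETS family, was found in the windows of Spry2 and Fgfr4, 2 of 9, against 14.9% of all promoter windows. Shorter or looser ETS matches were not searched. The AP-1 motif was in none of the 9, against 5.2% of all, and the CArG box bound by serum response factor was in none, against 1.63%. CpG dinucleotides ranged from 4 in Fgfr2 and 12 in Fgf9 to 47 in Fgf18, whose window had more than 98.6% of all windows. Of the 38 distal anchors, 57.9% held CCGGAA and 39.5% an AP-1 motif, against 57.7% and 32.2% of all 16864 anchors. A CArG box was in 1 of the 38 (2.63%), against 12.97% of all anchors. A motif match is a description of letters and not of a bound factor.

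Spry1, at chr3:37639947-37644598 (+), had 1 loop of 1 tag in the second part, over 1245 kb to Fat4, an atypical cadherin, and C230034O21Rik. Its anchor was shared with Gm42922 and Gm43820. The single tag lay below the 3.69 tags that the interval of a count of 0 reaches.

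Spry4 lies at chr18:38586247-38601415 (-) and had 4 loops and 5 tags, 4 in the first part and 1 in the second, all downstream. The strongest ran 646 kb to the shared promoter of Hdac3, a histone deacetylase, and Rell2, with 2 tags (FDR 0.000855), a count that 13.9% of first-part loops of like span reached. Single tags went to Ndfip1, the paralogue of Ndfip2, at 182 kb, to an anchor 15.7 kb from Pcdh1 at 415 kb, and to Sra1 at 1931 kb. The promoter anchor was shared with AC133601.1.

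Spans of the 39 loops ran from 126 to 1931 kb, and their median of 428 kb was below the 506 kb over all 23312 loops at promoters. None was shorter than 100 kb, and 7 were longer than 1 Mb, all of a single tag. Listed loops of a span like 63.6 kb had at least 3 tags, so weaker short contacts would not appear in the list. Upstream loops numbered 15 and downstream loops 24. The same shares over all loops at promoters were not computed, so these counts are not read as traits of the 10 genes. Fgfr1 and Fgfr2 reached mainly upstream, Fgfr2 in large part from the start at Ctbp2, Spry2 and Spry4 only downstream, and Dusp6 both ways. No loop joined any 2 of the 10 genes, but their positions largely fixed this outcome. Every listed loop joins anchors on a single chromosome, and only Fgf9 and Spry2 share one. These lie at chr14:58070547 and chr14:105891947, much farther apart than the longest span of 1931 kb. None of the loops ended at any of the 61 other pathway genes examined, and how many of those lay within reach was not counted.

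**Figure D3:**
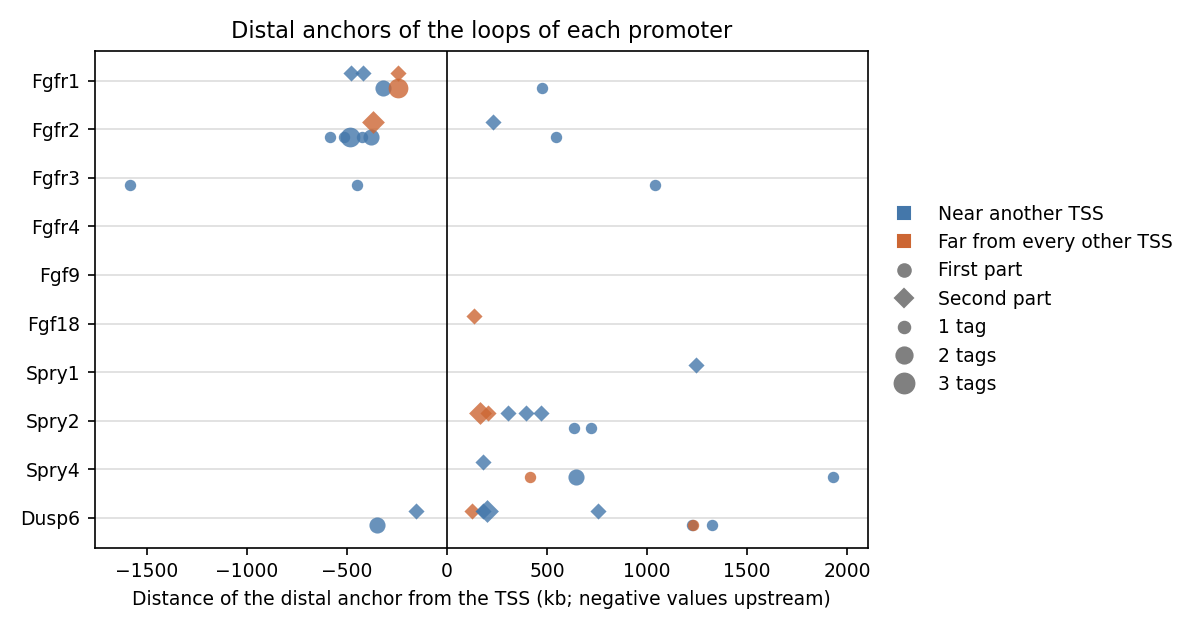
Distance of each distal anchor from the TSS in kb (horizontal axis, negative values upstream) for each gene, with marker area showing 1 to 3 tags, circles and diamonds the first and second part of the list, and color whether another TSS lay within 2 kb. Loops of Fgfr2 at the Ctbp2 site are drawn relative to that site. The 7 loops of Spry2 and 4 of Spry4 all lie on the downstream side, and Fgfr4 and Fgf9 have none.

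Most distal anchors lay near another TSS in GENCODE, which also annotates internal starts, pseudogenes and noncoding transcripts. Of the 38 distinct distal anchors, 30 lay within 2 kb of another TSS (78.9%, Wilson 95% interval 63.7 to 88.9%), and the share over all looped promoters was 78.7%, inside that interval. A TSS of a protein-coding gene was near 23, and with protein-coding transcripts only the share was 60.5% (44.7 to 74.4%). The 8 anchors far from every TSS belonged to 6 genes and lay 2.97 to 107 kb from the nearest start. Single-tag loops made up 76.9% of the 39, against 77.8% of all loops at promoters. The second part of the list supplied 42% of the 50 tags (29.4 to 55.8%), and the 30.1% over all loops at promoters lay inside that interval.

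The share of nearby protein-coding genes that were reached differed among the 10 genes. Within 1 Mb, Fgfr1 had loops to 4 of 27 protein-coding genes, Spry4 to 3 of 37 and Fgfr3 to 1 of 34. In their sparser surroundings, Dusp6 had loops to 4 of 6 and Spry2 to 2 of 3. These rest on few tags: Galnt4 and Poc1b shared an anchor with 1 tag, and Kitl, Ndfip2 and Rbm26 had 1 tag each. From its main promoter, Fgfr2 reached 1 of 10. Fgfr4 reached none of 47, Fgf18 none of 26, Fgf9 none of 15 and Spry1 none of 12. For Fgfr4 and Fgf9 this follows from their having no loop at all. No share over other genes was computed, and the differences were not tested.

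Other genes of the pathway, from a list of 62 ordered by role, were looped in 36 of the 61 that GENCODE names (59.0%), against 45.8% of protein-coding genes. The list was chosen with earlier results of these data known, and this difference was not tested. All 9 adaptors, 10 of 11 further feedback inhibitors, 8 of 12 Ras and cascade kinases and 2 of 3 ETS factors had a loop, as did 6 of 20 further ligands and 1 of 6 coreceptors and decoy receptors. Of Fgf9 and Fgf18, 1 of 2 had a loop. Scores of at least 20, reached by none of the 10 genes, were found for the adaptor Shc1 with 49 tags, the kinase Map2k2 with 36, the docking protein Frs3 with 27, Fgf11, an intracellular member of the family, with 24, and the feedback inhibitor Spred3 with 20. Shc1 had 26 tags over 26.9 kb to Zbtb7b, Map2k2 12 over 31.5 kb to Zbtb7a, Fgf11 12 over 33.5 kb and Spred3 9 over 13.7 kb, whereas the strongest loop of Frs3 spanned 186 kb. All 5 shared their anchors with another gene: Shc1 with Cks1b, Map2k2 with Mir5615 copies, Frs3 with Tomm6, Fgf11 with Tmem102 and Spred3 with Ggn. Their tags can therefore not be given to them alone. The shortest loop of the 10 genes, 126 kb, was longer than the strongest loops of Shc1, Map2k2, Fgf11 and Spred3.

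**Figure D4:**
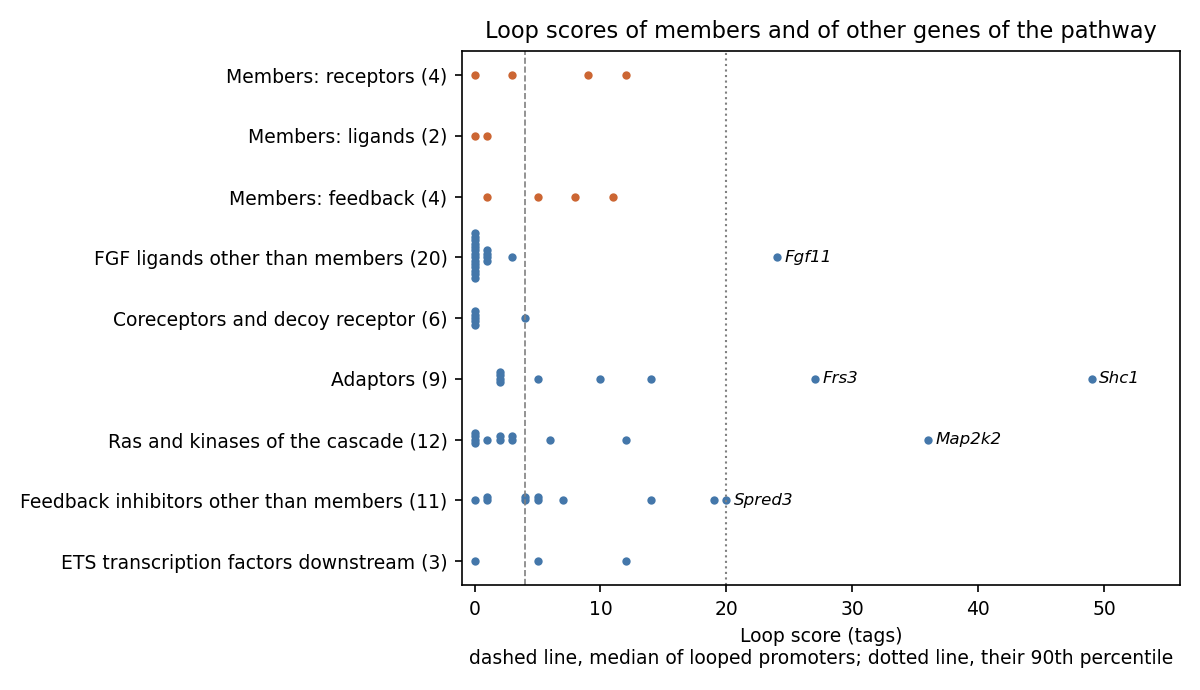
Loop score in tags (horizontal axis) of the 10 genes (orange) and of 61 other pathway genes (blue), each point a gene and each row a role with its number of genes. The dashed line is the median of looped promoters, 4 tags, and the dotted line their 90th percentile, 20 tags, which 5 other pathway genes reach and none of the 10.

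Promoters of cell type markers were read as well, which does not establish the tumor type. Of 4 synovial sarcoma markers, Pdgfra had 41 tags, Sox2 39, Tle1 4 and Bcl2 0. Pdgfra shared its anchor with Gm42802 and Gm42803, Sox2 with Gm27611 and Tle1 with C630043F03Rik, so these tags cannot be given to the markers alone. The endothelial markers Cdh5 and Tek had 3 and 1 tags and Pecam1 and Kdr none. All 4 immune markers (Ptprc, Csf1r, Adgre1, Cd68) and all 4 muscle markers (Myod1, Myog, Des, Acta1) were at 0. Since 45.8% of protein-coding genes had a loop, a few markers at 0 say little of the share of these cells, and their part in the results was not tested.

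Window size and transcript set left most scores as they were, while thresholds on the loops did not. At windows of 1 and 5 kb, 8 of 10 genes had a loop, and only Fgfr1 (11 tags) and Spry2 (9 tags) gained with the wider window. With RefSeq start sites, which lack the start at Ctbp2, Fgfr2 fell from 12 to 4 tags, below Dusp6, Fgfr1, Spry2 and Spry4. At an FDR under 0.01, 5 of 10 genes kept a loop, against 17.5% of protein-coding genes, and at an FDR under 0.001, 3 of 10, against 11.2%. At the first of these the scores were 7 for Fgfr2, 5 for Fgfr1, 4 for Dusp6 and 2 each for Spry2 and Spry4. No single-tag loop in the list had an FDR under 0.0118, and all 9 loops of the 10 genes with 2 or more tags had one under 0.01. For these genes the threshold of 0.01 thus kept the same loops as a minimum of 2 tags. Over all protein-coding genes the 2 settings differed, with 17.5% and 21.2% keeping a loop.

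**Figure D5:**
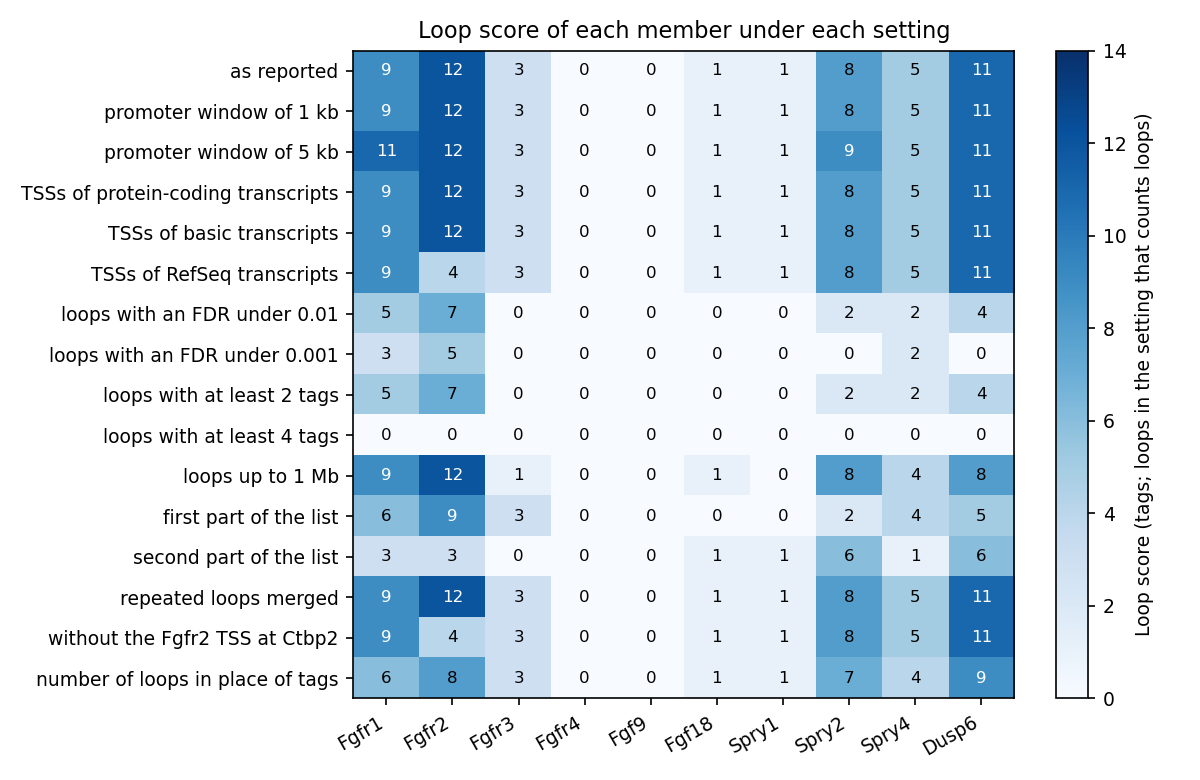
Loop score in tags (numbers and shading) of each gene (columns) under each setting (rows), where the last row counts loops. Fgfr4 and Fgf9 stay at 0 in every setting shown, Fgfr2 falls from 12 to 4 when the start site at Ctbp2 is left out, and no gene has a loop of at least 4 tags.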

How the data were processed

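The chromatin of 2 hSS2 tumors was profiled by H3K27ac HiChIP with MboI. According to the methods, HiC-Pro was used by the authors for mapping to mm10 and hichipper for calling, and 1 merged list was deposited. A supplementary legend names Mango as the caller instead. Its deposited values are, per loop, an unnormalized count of paired-end tags and the FDR of the authors' caller, a p-value adjusted for multiple testing. Loops were selected at 0.05 according to the methods but at 0.01 according to a supplementary legend, and the list reached 0.05. How the tumors were merged is not given in the sources used here. The list was found to consist of 2 sorted parts, which were used together and assigned to no tumor.

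Anchors were converted to start at 1 and assigned to genes within 2 kb of a TSS in GENCODE vM21 on GRCm38, without the mitochondrial genome. A span is the distance between anchor midpoints. The list totals 41574 tags, which limits precision to a few tags per gene. Wilson and exact Poisson 95% intervals cover counting error only, and the Poisson interval for a listing of 0 reaches 3.69 tags. A single merged list holds no replicate values and no test was run on it. The 10 genes, the pathway and marker lists and the settings were chosen with earlier results of these data known. Named genes were the 10 genes, genes at their anchors, pathway genes with a score of at least 20, and all markers. Promoter sequences are from RefSeq and anchor sequences from GRCm38.p6. Assignment was tested on simulated data with 604 loops at 200 promoters, and 0 promoters received a wrong score. The alternatives were window sizes of 1 and 5 kb, transcript sets, FDR and tag thresholds, a limit of 1 Mb, each part alone, repeated loops merged, loops in place of tags and, added after the values were seen, leaving out the Fgfr2 start at Ctbp2. Scripts ran in Python 3.11.15 with pysam 0.24.0, pandas 2.3.3, numpy 2.4.6, scipy 1.17.1 and matplotlib 3.10.9.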

Additional observations from a re-analysis of the deposited data

How the results depend on the processing

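Thresholds on the loops moved the results, and windows and transcript sets mostly did not. The number of the 10 genes with a loop, 8, became 5 at an FDR under 0.01 or at least 2 tags, 3 at an FDR under 0.001 and 0 at 4 tags or more. Of protein-coding genes, 17.5%, 21.2%, 11.2% and 8.5% had a loop in these 4 settings, in that order. The 50 tags of the 10 genes became 20 at an FDR under 0.01 or at least 2 tags, 10 at an FDR under 0.001 and 0 at 4 tags or more, and divided into 29 in the first and 21 in the second part of the list. The 36 looped pathway genes became 16 at an FDR under 0.01, 11 at an FDR under 0.001, 17 with at least 2 tags and 7 with at least 4. The share of distal anchors near another TSS, 78.9%, was 60.5% with protein-coding transcripts only and 50% (2 of 4 anchors) at an FDR under 0.001, and with 4 tags or more no anchor was left. Fewer loops or start sites enter each of these settings by construction. Of 150 scores of single genes under other settings, 105 stayed within 1.5 times and 45 moved. For the 8 genes with a loop, since Fgfr4 and Fgf9 stayed at 0, 75 of 120 stayed. Some of these could not move: merging repeated loops leaves every score unchanged by construction. Leaving out the start at Ctbp2 can change only Fgfr2. No paired analysis was possible because the merged list carries no values per tumor. Most loops rest on 1 tag, so the depth limits every score and orders no neighboring genes.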

Other observations

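Several partners of the receptors and Sprouty genes were paralogues of each other, a pattern chosen after the values were seen and not tested. Fgfr1 had 2 tags to Tacc1 in 1 loop, and Fgfr2 had 3 tags to Tacc2 in 2 loops, all in the first part of the list. These genes encode related centrosomal proteins and lie beside their receptors, with outermost start sites 262 and 311 kb apart. The loops ended at internal TSSs of Tacc1 and Tacc2, over 318 kb for Fgfr1 and over 381 and 428 kb for Fgfr2. Fgfr3 had no listed loop to Tacc3, whose start lies 63.6 kb away and whose own score was 18. No listed loop of like span, of which there were 78, had fewer than 3 tags, and their median was 8. Fgfr3 had 1 tag to Ctbp1. Ctbp2, by contrast, was not a loop partner of Fgfr2 but shared a start site with it, and the 8 tags there went to other anchors. Spry2 had 1 tag to Ndfip2 and Spry4 had 1 tag to Ndfip1, with start sites 638 and 191 kb apart. The distances therefore differ among these pairs, and each of the Sprouty contacts rests on a single tag.

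With gene extents from RefSeq, Fgfr1 had further anchors inside its body, outside the promoter window. GENCODE extends Fgfr2 to the start at Ctbp2, so that on its annotation other anchors, such as those at Tacc2, also lie in the Fgfr2 body. An anchor 17.98 kb from the TSS had 1 tag to Plpp5 and 1 to Eif4ebp1, and an anchor 25.4 kb from it had 1 tag to Eif4ebp1 and 1 to the far anchor upstream. All 4 of these tags were in the second part of the list.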
